A study of Mus musculus with 4 samples.

Results

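The claudin family was followed here through 10 genes, Cldn1, Cldn3, Cldn4, Cldn5, Cldn6, Cldn7, Cldn8, Cldn9, Cldn12 and Cldn14, chosen by symbol and found in all 4 libraries, out of 32285 features in the count tables. A further 22 symbols of the family are treated at the end. Single CD45-negative stromal cells of the thymus had been profiled by droplet-based 3′ RNA-seq from untreated 6-month-old C57BL/6 mice. Libraries WT 1 and WT 2 came from wild-type animals, named mock in the labels, and libraries Z/Z 1 and Z/Z 2 from animals homozygous for the LacZ allele of Foxn1. The study describes this allele as hypomorphic, with an early loss of Foxn1 and a thymus that involutes prematurely. The allele is a germline change and no Cre or transgene was used. Thymi were pooled before the sort according to the protocol, so the spread between libraries is that between pools and not between single animals. The protocol gives the mice as female and the sample characteristics as male.

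Claudins are small proteins that cross the membrane several times and assemble into the strands of tight junctions, where neighbouring cells seal the space between them. Some, such as claudin-1, claudin-3 and claudin-5, are known mainly as sealing claudins, and which members a cell makes sets which solutes can pass. Claudin-5 is the principal claudin of endothelium. In the thymus, claudin-3 and claudin-4 mark subsets of medullary epithelium, and the study used claudin-3 to mark age-associated epithelial cells of the first kind, called aaTEC1. Plvap and Cldn5 served there to delineate capillary endothelium.

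The libraries held 8468086 to 50705511 UMIs (unique molecular identifiers, each counting 1 captured transcript), and 1458, 456, 4455 and 3477 cells were kept in WT 1, WT 2, Z/Z 1 and Z/Z 2. These included 558, 103, 1954 and 1543 thymic epithelial cells (TECs) and 109, 25, 697 and 673 endothelial cells, so that WT 2 was the smallest library in both lineages. TECs of WT 1 and WT 2 had median UMI counts of 16552 and 17803, deeper than the 6736 and 7024 of Z/Z 1 and Z/Z 2. Foxn1, the altered gene, was at 90.3 and 127 CPM (UMIs per 1000000 UMIs, taken over all cells of a lineage in 1 library) in WT TECs and at 51.1 and 68.7 CPM in Z/Z TECs, with no overlap, and its log2 difference was -0.71 (SE 0.24, edgeR adjusted p = 0.0862). These sums mix classes whose shares differed between genotypes. Within the mTEC2-like class defined below, Foxn1 overlapped, at TMM-normalised levels of 94.7 and 176 CPM in WT and 118 and 121 CPM in Z/Z. The log2 difference there was -0.16 (SE 0.33, edgeR adjusted p = 0.857). The lineages carried their defining markers: Epcam was at 868 to 1163 CPM in TECs and at 8.93 to 15.8 CPM in endothelial cells, and Pecam1 was at 1641 to 1916 CPM in endothelial cells. Libraries of 1 genotype shared cell barcodes, 202 between WT 1 and WT 2 and 249 between Z/Z 1 and Z/Z 2, whereas any pair of different genotype shared at most 6. Cells with such a barcode carried 82.8% of the TEC UMIs of WT 2, 35.6% of those of Z/Z 1, 20.7% of those of WT 1 and 14.5% of those of Z/Z 2, and for this reason the genotype tests below were also run without them. Libraries of 1 genotype may therefore not be fully independent, which was not tested. The levels per class and the sources of UMIs are given with these cells kept.

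The members lie on chromosomes 5, 11, 16 and 17 of the GRCm38 (mm10) assembly, and in all except Cldn1 and Cldn7 the coding sequence sits in a single exon. Cldn3 (chr5:134986214-134987472, plus strand) and Cldn4 (chr5:134945119-134946934, minus strand) are neighbours, 39279 bases apart, and each consists of 1 exon. Cldn6 (chr17:23679249-23682446, plus strand) and Cldn9 (chr17:23682584-23684026, minus strand) face each other with their 3′ ends 137 bases apart. Cldn5 (chr16:18776847-18778262, plus strand) has 1 exon, Cldn14 (chr16:93919031-94008837, minus strand) spans 89807 bases, and Cldn7 (chr11:69964779-69967885, plus strand) has up to 5 exons. The library method keeps the strand of a transcript. Cldn3 is overlapped by the antisense transcript Wbscr25, which had 75, 8, 49 and 53 UMIs in the TECs of WT 1, WT 2, Z/Z 1 and Z/Z 2, and Cldn14 overlaps Gm49618, with at most 2 UMIs in a library.

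Promoter windows were read for the members whose levels set the patterns below. Each window holds the 250 bases before a RefSeq start (GRCm38.p6), 5′ to 3′ on the strand of the gene, and capitals mark matches on either strand to the E-box CACCTG (bound by Snail and Zeb repressors), the FOXN1 core GACGC, the ETS core CCGGAA (used by endothelial factors such as Erg) or the Grainyhead-like motif AACCGG. The windows lie at chr5:134985964-134986213 for Cldn3, chr5:134946935-134947184 for Cldn4, chr16:18776597-18776846 for Cldn5, chr11:69964529-69964778 for Cldn7 and chr16:93929818-93930067 for an internal start of Cldn14.
Cldn3 (plus strand): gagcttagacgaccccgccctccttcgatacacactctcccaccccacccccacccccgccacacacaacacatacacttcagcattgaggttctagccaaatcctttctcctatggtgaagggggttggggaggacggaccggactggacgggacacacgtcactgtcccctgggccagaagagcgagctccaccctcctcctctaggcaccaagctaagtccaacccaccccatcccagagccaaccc
Cldn4 (minus strand): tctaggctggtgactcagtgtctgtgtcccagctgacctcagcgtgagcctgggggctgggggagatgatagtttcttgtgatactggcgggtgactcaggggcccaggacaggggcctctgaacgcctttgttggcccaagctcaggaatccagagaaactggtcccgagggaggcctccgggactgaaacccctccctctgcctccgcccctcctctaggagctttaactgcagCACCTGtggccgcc
Cldn5 (plus strand): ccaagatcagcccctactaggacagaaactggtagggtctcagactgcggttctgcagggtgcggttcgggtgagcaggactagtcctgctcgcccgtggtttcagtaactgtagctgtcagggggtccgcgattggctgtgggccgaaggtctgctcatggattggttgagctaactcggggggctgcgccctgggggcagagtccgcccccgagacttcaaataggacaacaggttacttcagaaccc
Cldn7 (plus strand): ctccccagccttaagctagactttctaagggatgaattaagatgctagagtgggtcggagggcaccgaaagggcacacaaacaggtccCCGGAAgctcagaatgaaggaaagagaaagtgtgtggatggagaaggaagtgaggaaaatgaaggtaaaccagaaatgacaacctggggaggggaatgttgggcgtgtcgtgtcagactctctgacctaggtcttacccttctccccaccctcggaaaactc
Cldn14 (minus strand): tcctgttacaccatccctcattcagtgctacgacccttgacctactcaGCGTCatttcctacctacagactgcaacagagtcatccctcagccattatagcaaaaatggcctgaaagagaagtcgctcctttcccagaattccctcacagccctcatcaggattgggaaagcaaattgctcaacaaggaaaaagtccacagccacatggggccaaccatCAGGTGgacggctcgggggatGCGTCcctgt
The Cldn4 window held an E-box 14 bases before the start, the Cldn7 window an ETS core 162 bases before it, and the Cldn14 window shown an E-box and 2 FOXN1 cores. The window at the outermost start of Cldn14 (chr16:94008838-94009087) held no match, and the remaining one held an ETS core and a Grainyhead-like motif. The windows of Cldn3 and Cldn5 held none of these letters. Among 32851 promoter windows of the same length, 17.2% held the E-box, 22.6% the FOXN1 core, 12.0% the ETS core and 5.62% the Grainyhead-like motif. The ETS and Grainyhead-like letters can share bases, as in another Cldn7 window, which also held 2 E-boxes. The promoter table used here listed no window for Cldn8 and Cldn9.

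Epithelial classes and endothelial types were rebuilt from marker genes, with all claudins kept out of clustering and naming. The named epithelial classes were cTEC-like (cortical), mTEC1-like and mTEC2-like (medullary, the latter with Aire and Cd80 among its leading genes), Tuft-like, Goblet-like, Neuro-like, aaTEC1-like and aaTEC2-like cells. The aaTEC2-like cells scored low for every lineage list and were placed with TECs by their own markers, as the study describes them as poor in EpCAM. Unnamed clusters held 18.5%, 25.2%, 45.6% and 39.1% of the TECs of WT 1, WT 2, Z/Z 1 and Z/Z 2. Means below are over libraries with at least 10 cells of the class, so n runs from 2 to 4, and names may differ from the study's own annotation. They do not hold the genotypes evenly. Goblet-like means come from the Z/Z libraries only, and Tuft-like means from WT 1 and Z/Z 2. The cTEC-like, mTEC1-like, aaTEC1-like, aaTEC2-like, arterial and venous means come from WT 1 and both Z/Z libraries. The order of classes and the SDs therefore mix genotype with the spread between libraries.

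Cldn3, Cldn4 and Cldn7, which code for claudins of simple epithelia, shared a pattern. Each was high in mTEC2-like, Tuft-like, Goblet-like and aaTEC1-like cells, at an intermediate level in mTEC1-like cells, and near the level of non-epithelial cells in cTEC-like and aaTEC2-like cells. Cldn3 was at 326 ± 69.6 CPM (SD, n = 3) in aaTEC1-like, 279 ± 77.5 (n = 2) in Goblet-like, 252 ± 37.5 (n = 2) in Tuft-like and 161 ± 82.7 (n = 4) in mTEC2-like cells. The ranges of neighbours in this order overlapped. Below them came mTEC1-like cells at 24.9 ± 9.54 CPM (n = 3), which overlapped with neither mTEC2-like cells nor fibroblasts, the latter at 6.70 ± 2.00 CPM (n = 4). In cTEC-like cells Cldn3 was at 2.60 ± 1.60 CPM (n = 3) and in aaTEC2-like cells at 0 to 1.77 CPM (n = 3), not above fibroblasts. The 9 aaTEC1-like cells of WT 2, outside the mean above, had Cldn3 at 151 CPM.

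Cldn4 was at 562 ± 438 CPM (SD, n = 2) in Goblet-like, 339 ± 224 (n = 2) in Tuft-like, 316 ± 202 (n = 3) in aaTEC1-like and 314 ± 57.3 (n = 4) in mTEC2-like cells, all overlapping with the next in order. It fell to 56.6 ± 33.6 CPM (n = 3) in mTEC1-like and 2.72 ± 2.08 CPM (n = 3) in cTEC-like cells, each step without overlap. In the 9 aaTEC1-like cells of WT 2, outside the mean, Cldn4 was at 133 CPM. Cldn7 was highest in Tuft-like cells, at 988 ± 55.9 CPM (n = 2), a range above that of Goblet-like cells at 606 ± 235 (n = 2). It was at 491 ± 74.7 CPM (n = 4) in mTEC2-like, 272 ± 104 (n = 3) in aaTEC1-like and 59.9 ± 12.9 (n = 3) in mTEC1-like cells, 3 ranges that did not overlap, and at 1.80 ± 0.784 CPM (n = 3) in cTEC-like cells. The 9 aaTEC1-like cells of WT 2, too few to enter these ranges, held 0 Cldn7 UMIs. With them the aaTEC1-like and mTEC1-like ranges would overlap. The few Neuro-like cells (3 from WT 1, 7 from Z/Z 1, 6 from Z/Z 2) also held all 3 genes, with Cldn7 at 1004, 875 and 1004 CPM.

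Among the named classes with at least 10 cells in a library, Cldn9, Cldn14 and Cldn6 had their highest means in aaTEC1-like cells. Claudin-9 and claudin-14 are known from the inner ear, where loss of either causes deafness, and claudin-6 from embryonic epithelium. There Cldn9 was at 298 CPM (WT 1), 215 CPM (WT 2), 399 CPM (Z/Z 1) and 515 CPM (Z/Z 2), so that aaTEC1-like cells of every library held it, although WT 1 and WT 2 contributed only 16 and 9 such cells. The mean over the 3 libraries with 10 or more cells, 404 ± 108 CPM (SD), stood apart from mTEC1-like cells at 72.3 ± 35.8 (n = 3), the next in order. Cldn14 was at 381, 476, 123 and 97.0 CPM in WT 1, WT 2, Z/Z 1 and Z/Z 2, lower in both Z/Z libraries than in both WT ones, a difference that rests on the few WT cells and was not tested. In any other named class the highest value of a library was 12.4 CPM, in the Tuft-like cells of WT 1, and the aaTEC1-like cells held 78.9%, 100.0%, 97.5% and 96.4% of the Cldn14 UMIs of TECs in the same order. Cldn6 was low throughout, at 23.7 ± 4.94 CPM (n = 3) in aaTEC1-like and 7.94 ± 6.83 (n = 4) in mTEC2-like cells. In the 9 aaTEC1-like cells of WT 2, outside that mean, it was at 4.58 CPM, from 1 UMI.

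Cldn8, a claudin of the kidney tubule, was at 23.5 ± 6.30 CPM (SD, n = 2) in Goblet-like and 10.6 ± 5.78 (n = 3) in aaTEC1-like cells and was at 0 in both libraries with at least 10 Tuft-like cells. Cldn1, the sealing claudin of the epidermis, was at 60.8 ± 34.2 CPM (n = 3) in mTEC1-like, 31.1 ± 21.9 (n = 4) in mTEC2-like and 30.5 ± 6.63 (n = 3) in aaTEC1-like cells. The 9 aaTEC1-like cells of WT 2, outside that mean, had Cldn1 at 142 CPM. No step between neighbouring epithelial classes in the order of Cldn1 was free of overlap, and 0 UMIs were counted in capillary, arterial and venous cells of each library. Cldn12, which lacks the binding motif for the scaffold ZO-1 found in most claudins, was counted in TECs, endothelial cells and fibroblasts of all 4 libraries. It was at 33.8 ± 19.2 CPM (n = 4) in capillary cells, 19.3 ± 2.97 (n = 3) in cTEC-like cells, 19.1 ± 4.21 (n = 4) in fibroblasts and 2.81 ± 2.02 (n = 4) in mTEC2-like cells, and each neighbour in its order overlapped with the next.

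Cldn5 was at 730.1 ± 462 CPM (SD, n = 4) in capillary and 729 ± 144 (n = 3) in arterial cells, ranges that overlapped, and at 15.4 ± 11.4 CPM (n = 3) in venous cells, a range apart from both. The near-equal capillary and arterial means pool genotypes with opposite orders. Capillary cells were below arterial cells in WT 1 (466 and 621 CPM). They were above them in Z/Z 1 (937 and 674 CPM) and Z/Z 2 (1272 and 893 CPM). In the named TEC classes the mean of Cldn5 was between 1.27 and 4.47 CPM, against 1.26 ± 1.25 CPM (n = 4) in fibroblasts. 

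**Figure D1:**
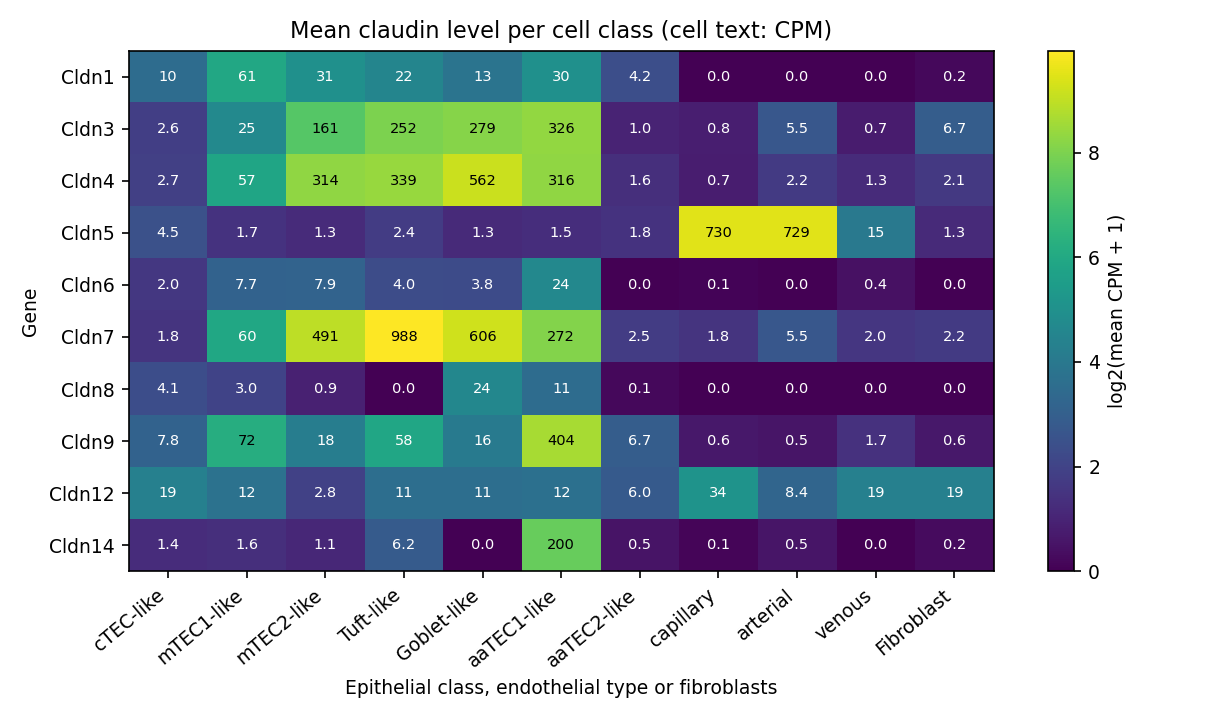
Mean level of the 10 claudins (rows) in the epithelial classes, endothelial types and fibroblasts (columns), over libraries with at least 10 cells of the class. Colour gives log2 of the mean CPM plus 1 and the printed value the mean CPM, with Cldn5 bright in capillary and arterial cells, Cldn3, Cldn4 and Cldn7 bright from mTEC2-like to aaTEC1-like cells, and Cldn14 bright in aaTEC1-like cells.

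Shares of cells with a UMI of a gene were compared at a common depth of 2000 UMIs, to which every cell was thinned, since WT TECs had more UMIs per cell, and fibroblasts gave the background. In TECs, Cldn4 was detected in 21.3% of 550 cells of WT 1 (95% exact interval 17.9 to 24.9), 26.2% of 103 cells of WT 2 (18.0 to 35.8), 4.59% of 1919 cells of Z/Z 1 (3.69 to 5.62) and 5.87% of 1482 cells of Z/Z 2 (4.73 to 7.19). Fibroblasts had at most 0.271%. The WT and Z/Z shares did not overlap, and the exact two-sided permutation test over libraries gave p = 0.333, the smallest that 2 against 2 allows. Cldn7 behaved alike, at 28.9% and 24.3% in WT against 7.35% and 9.65% in Z/Z. Cldn9 went the other way, at 0.909% and 1.94% in WT against 9.12% and 10.1% in Z/Z, with at most 0.407% in fibroblasts. For Cldn3 the genotypes overlapped, at 10.7% and 8.74% of WT against 6.25% and 9.78% of Z/Z cells. Cldn5 was found in 0 to 0.405% of TECs and in 0 to 0.542% of fibroblasts, so its share in TECs was at background. These intervals cover counting error only. With shared barcodes left out, a check added after seeing the data, the thinned shares in WT 1, WT 2, Z/Z 1 and Z/Z 2 were 21.8%, 15.7%, 3.44% and 5.45% for Cldn4, 28.7%, 15.7%, 5.87% and 9.01% for Cldn7 and 0.998%, 1.96%, 7.95% and 9.29% for Cldn9, again with no overlap between genotypes. Before thinning, the shares of TECs in WT 1, WT 2, Z/Z 1 and Z/Z 2 were 44.6%, 51.5%, 10.6% and 13.3% for Cldn4, 51.8%, 48.5%, 14.6% and 18.1% for Cldn7, 8.60%, 15.5%, 21.6% and 22.2% for Cldn9 and 34.9%, 33.0%, 14.8% and 18.5% for Cldn3.

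Co-detection of members was read in the same thinned cells. Among TECs with Cldn4, the share of cells that also held Cldn7 was higher than among TECs without it. Among thinned cells with a Cldn4 UMI, Cldn7 was also found in 63.2%, 51.9%, 58.0% and 51.7% of cells in WT 1, WT 2, Z/Z 1 and Z/Z 2, against 19.6%, 14.5%, 4.92% and 7.03% of cells without Cldn4. Within mTEC2-like cells alone the shares were 61.4%, 55.0%, 47.4% and 48.1% against 34.8%, 34.5%, 33.3% and 41.8%. Among the Tuft-like cells of WT 1, Cldn7 was found in 63.2% of cells with and 61.1% of cells without Cldn4. For Cldn3 and Cldn9, which were both high in aaTEC1-like cells, the shares of cells with Cldn9 in that class were 46.3% of cells with and 36.8% of cells without Cldn3 in Z/Z 1, and 52.4% and 43.3% in Z/Z 2. These are descriptions of cells that share a library, and no test was made.

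The question of which claudins separate endothelium from epithelium was asked on sums of UMIs per lineage within each library, with the library as a block. Of the 10 members, 8 passed the filter on low counts and all 8 differed at an adjusted p below 0.05, 2 higher and 6 lower in endothelial cells. Among all 14204 genes tested, 44.2% differed, 18.9% higher and 25.3% lower, so a large part of the transcriptome separated these lineages. Cldn5 was at 374, 295, 689.7 and 874 CPM in endothelial cells of WT 1, WT 2, Z/Z 1 and Z/Z 2 and at 2.04, 0.433, 1.88 and 2.55 CPM in TECs of the same libraries. Every endothelial value lay above every TEC value, and the log2 difference was 8.59 (SE 0.32, edgeR adjusted p = 1.36e-06). Cldn12 was higher in endothelial cells by 1.29 (SE 0.32, adjusted p = 0.0108), at 18.9 to 52.6 CPM against 8.15 to 16.2 CPM, and this call was lost when every cell was thinned to 2000 UMIs (log2 difference 0.55).

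On the epithelial side, Cldn7 was lower in endothelial cells by a log2 difference of -6.09 (SE 0.30, edgeR adjusted p = 3.01e-06), Cldn4 by -6.13 (SE 0.35), Cldn3 by -6.26 (SE 0.45) and Cldn9 by -6.46 (SE 0.35). The endothelial sums behind these values were small, with 5, 2, 8 and 8 Cldn7 UMIs in WT 1, WT 2, Z/Z 1 and Z/Z 2, 1, 0, 6 and 8 of Cldn4, 3, 1, 4 and 4 of Cldn3 and 0, 0, 5 and 8 of Cldn9. Cldn1 and Cldn14 were also lower, but with 1 and 2 UMIs in all endothelial cells their fitted difference depends on the prior count and is not given. Cldn8 had 0 UMIs in the endothelial cells of all 4 libraries, which allows up to 0.579 CPM in Z/Z 1 (3 counts), and Cldn6 had 2. Both were below the filter. TEC markers in the endothelial sums amounted to 116 to 197 CPM over 5 genes, with Krt5 at 0 in WT 2, and the part of stray epithelial RNA in the low endothelial claudin values was not tested. The median log2 difference over all genes was -0.14, and -0.27 with DESeq2, far smaller than the member values.

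Claudin levels in TEC sums differed between the genotypes in both directions. Between Z/Z and WT, Cldn9 and Cldn6 were higher and Cldn4, Cldn1 and Cldn7 lower at an adjusted p below 0.05, 5 of 10 members. Over all 18850 genes tested 21.6% were called, 9.86% higher and 11.8% lower, so that calls were common in this comparison. In sums over a lineage, fewer cells of a type and less RNA per cell cannot be told apart. Cldn9 was at 14.8 and 29.0 CPM in WT 1 and WT 2 and at 137 and 155 CPM in Z/Z 1 and Z/Z 2. Its Z/Z values lay well above the WT ones, by a log2 fold change of 2.97 (SE 0.34, edgeR adjusted p = 0.00903). Cldn6, the neighbour of Cldn9 on chromosome 17, rose from 1.47 and 2.60 CPM to 8.19 and 11.5 CPM, by 2.56 on the log2 scale (SE 0.45, edgeR adjusted p = 0.0194). This rise was absent when cells were thinned to a common depth. Thinned levels were 4.98 and 5.29 CPM in WT 1 and WT 2 and 3.45 and 4.91 CPM in Z/Z 1 and Z/Z 2. They rest on 4, 1, 12 and 11 TECs with a Cldn6 UMI, in the same order.

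Cldn4 was at 226 and 292 CPM in WT TECs and at 95.2 and 108 CPM in Z/Z TECs. It fell by 1.21 on the log2 scale (SE 0.18, edgeR adjusted p = 0.0134), with both Z/Z libraries below both WT libraries. Cldn1 went from 47.0 and 65.0 CPM to 22.6 and 16.3 CPM and fell by 1.37 (SE 0.27, adjusted p = 0.0243). Cldn7 was at 390.2 and 299.8 CPM in WT TECs, at 151 and 198 CPM in Z/Z TECs, and fell by 0.84 (SE 0.20, adjusted p = 0.0379). The Cldn7 call was lost with doublets kept (adjusted p = 0.0584), at a clustering resolution of 0.5 (0.0736) and without the aaTEC2-like clusters (0.0749). The other 5 members did not pass. Cldn3, the gene of the aaTEC1 surface marker, was at 99.2 and 81.9 CPM in WT and 102 and 155 CPM in Z/Z, and its log2 fold change (0.63, SE 0.23, adjusted p = 0.106) turned to -0.35 when cells were thinned. Cldn12 (0.80, SE 0.29) and Cldn8 (1.65, SE 0.63) had adjusted p-values of 0.104 and 0.116. Cldn14 was at 10.0 and 45.1 CPM in WT, which enclosed the Z/Z values of 36.0 and 26.0 CPM, and Cldn5 was at 2.55 CPM or less in every library.

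**Figure D2:**
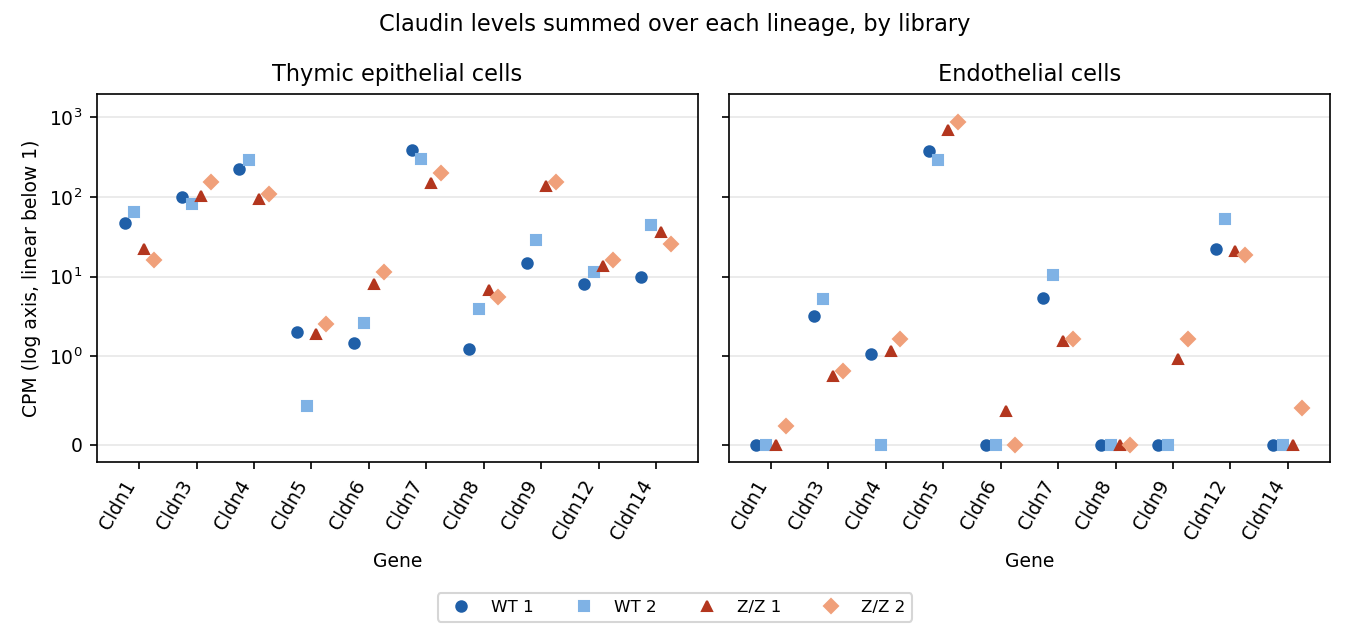
Level of each claudin (x axis) summed over TECs (left) and endothelial cells (right), in CPM on an axis that is logarithmic above 1 and linear below it, with 1 point per library. In TECs both Z/Z points of Cldn9 and Cldn6 lie above both WT points and those of Cldn1, Cldn4 and Cldn7 below them, and in endothelial cells Cldn5 lies between 295 and 874 CPM with both Z/Z points highest.

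These calls depended on single libraries. Without Z/Z 1 none of the 10 members was called, and without Z/Z 2 only Cldn9 was. The calls over all genes also fell without either Z/Z library, as listed at the end. Without WT 1 the call of Cldn7 was lost (log2 fold change -0.66). Without WT 2 those of Cldn8 (2.51) and Cldn14 (1.81) were gained. The calls over all genes without a WT library are not given here. With cells of shared barcodes left out, 0 of 10 were called by edgeR and only 1 of 17691 genes was, with 3408 genes at an unadjusted p below 0.05, although the log2 fold changes of Cldn9 (1.74), Cldn6 (1.96), Cldn4 (-1.26), Cldn1 (-1.22) and Cldn7 (-1.01) kept their signs. With DESeq2, 5 members were called in the main samples, and the share of all genes it called is not given here.

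The TEC sums did not hold the same mixture of classes in the 2 genotypes. The mTEC2-like cells were 51.1% and 47.6% of TECs in WT 1 and WT 2 but 3.12% and 5.38% in Z/Z 1 and Z/Z 2, whereas the aaTEC1-like share was 2.87%, 8.74%, 13.1% and 12.4% in the same order. The source of the Cldn3, Cldn4, Cldn7 and Cldn9 UMIs differed too, while that of Cldn14 stayed with aaTEC1-like cells in all 4 libraries. Of the Cldn4 UMIs of TECs, mTEC2-like cells held 73.0% and 84.1% in WT against 20.8% and 31.2% in Z/Z, where aaTEC1-like cells held 59.0% and 48.9%. Of the Cldn7 UMIs, mTEC2-like cells held 78.5% and 87.0% in WT, and aaTEC1-like cells 59.9% and 45.1% in Z/Z. For Cldn3 the aaTEC1-like share was 78.0% and 67.6% in Z/Z against 17.5% in WT 2 and less in WT 1. For Cldn9 it was 82.9% and 85.8% in Z/Z and 41.8% and 70.1% in WT.

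**Figure D3:**
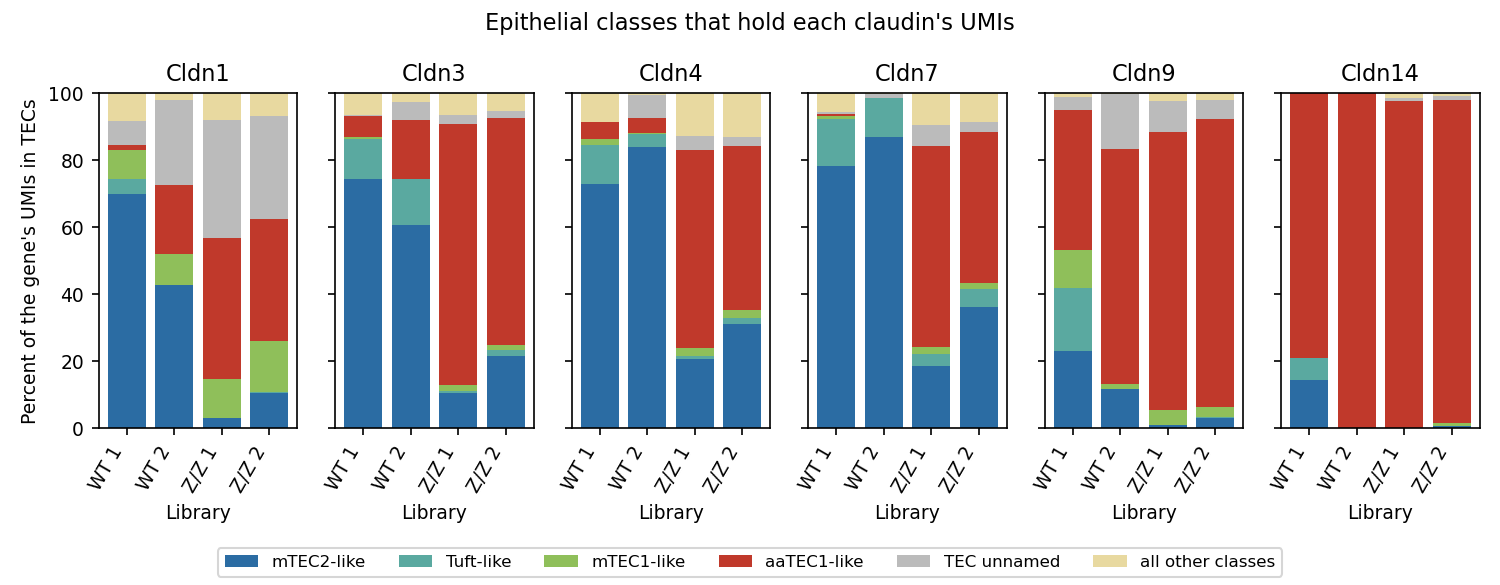
Percent of the UMIs of Cldn1, Cldn3, Cldn4, Cldn7, Cldn9 and Cldn14 in TECs (y axis) that came from each epithelial class, in each library (x axis). For Cldn3, Cldn4 and Cldn7 the mTEC2-like class holds most UMIs in both WT libraries, and in both Z/Z libraries the aaTEC1-like class holds the largest part, while for Cldn14 the aaTEC1-like class holds 78.9% or more in all 4.

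When the Z/Z levels were recomputed at the cluster shares of the WT libraries, an alternative chosen after seeing the data and with no test, the difference of Cldn4 went from -1.35 to -0.27 on the log2 scale of mean CPM and that of Cldn7 from -0.98 to 0.23. That of Cldn9 went from 2.74 to 1.35. Cldn1 (-1.53 and -1.94) and Cldn6 (2.28 and 2.48) moved little, Cldn3 went from 0.50 to 0.94, and Cldn12 (0.62 and -0.28) and Cldn14 (0.17 and -1.88) changed sign. The Z/Z values at WT shares were 224 and 205 CPM for Cldn4 and 365 and 442 CPM for Cldn7, against 226 and 292 and 390.2 and 299.8 CPM measured in WT. Leaving out the mTEC2-like cluster left 0 of 10 members called by edgeR and lowered the calls over all genes from 4080 to 432. Without it the log2 fold changes of Cldn4 (-0.68), Cldn7 (-0.15) and Cldn9 (1.94) were smaller, whereas those of Cldn1 (-1.56) and Cldn6 (2.21) were close to their values in all TECs.

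**Figure D4:**
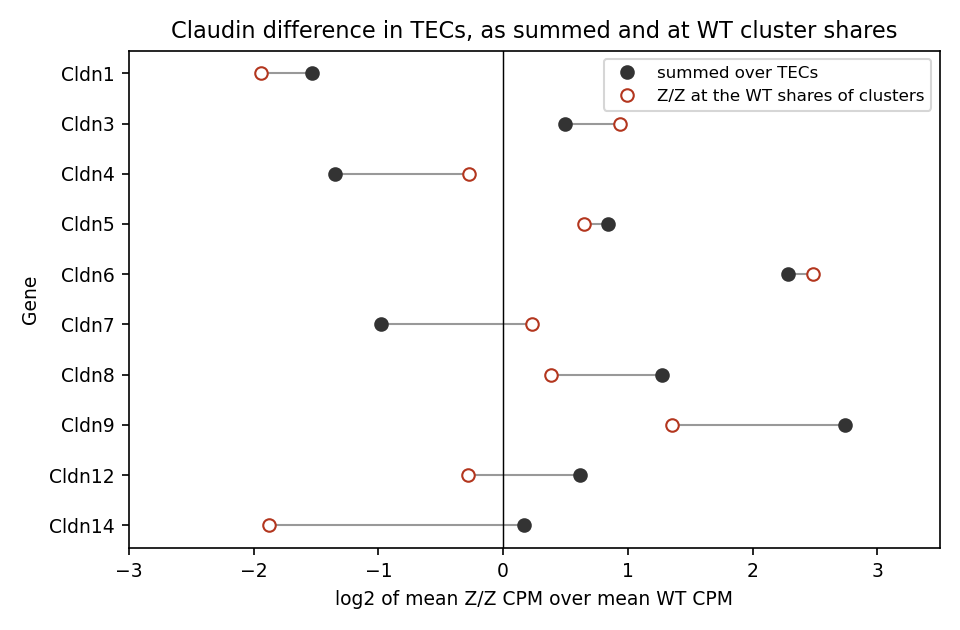
Log2 of the mean Z/Z CPM over the mean WT CPM in TECs (x axis) for each claudin (y axis), as summed (filled points) and with Z/Z levels at the WT shares of clusters (open points). Cldn4 moves from -1.35 to -0.27 and Cldn7 crosses 0, while Cldn1 and Cldn6 stay on their side with similar size.

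The mTEC2-like class was the only epithelial class with at least 10 cells in each library, and the genotypes were compared within it. Of 12677 genes tested, 0% were called by edgeR's quasi-likelihood test, 1763 had an unadjusted p below 0.05, and DESeq2 called 218. None of the 6 members tested was called by edgeR, and 4 of them had an unadjusted p below 0.05. Cldn1 was at 54.8 and 44.6 CPM in WT and 10.9 and 14.0 CPM in Z/Z (-1.98 on the log2 scale, SE 0.29, edgeR adjusted p = 0.267). Cldn9 was at 5.70 and 5.57 CPM in WT and 21.0 and 38.0 CPM in Z/Z (2.40, SE 0.43, adjusted p = 0.267). Cldn1 and Cldn9 were the members that DESeq2 called. Cldn3 was at 123 and 80.1 CPM in WT and 169.6 and 273 CPM in Z/Z (1.13, SE 0.34, adjusted p = 0.318), and Cldn6 was at 0.814 and 3.48 CPM against 14.8 and 12.7 CPM (3.01, SE 0.82, adjusted p = 0.301). The groups did not overlap for these 4 genes, but the share of all genes without overlap is not given here. An exact permutation test of 2 against 2 libraries gives p = 0.333 at best. When cells were thinned the groups of Cldn6 overlapped, at 1.97 and 11.3 CPM in WT and 9.20 and 0 CPM in Z/Z. Cldn4, at 275 and 396 CPM in WT and 313 and 274 CPM in Z/Z, and Cldn7, at 509.6 and 419 against 447 and 588 CPM, overlapped, and their log2 fold changes were -0.19 and 0.16 with SE of 0.24 and 0.22. With shared barcodes left out, 16 cells of WT 2 and 37 of Z/Z 1 remained, and the values were -1.0 for Cldn1, 2.07 for Cldn9 and 1.07 for Cldn3. None was called by edgeR, and 418 of 11360 genes had an unadjusted p below 0.05.

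In endothelial sums Cldn5 was the member called between genotypes. It was at 374 and 295 CPM in WT and at 689.7 and 874 CPM in Z/Z, both Z/Z libraries above both WT ones, with a log2 fold change of 1.19 (SE 0.23, edgeR adjusted p = 0.0216). Over the 11359 genes tested 2.07% were called. Cldn12, at 22.4 and 52.6 CPM in WT against 21.2 and 18.9 CPM in Z/Z (-0.58, SE 0.41, adjusted p = 0.473), and Cldn7, with 23 UMIs in all libraries (-1.99, SE 0.82, adjusted p = 0.218), were the other members tested. The Cldn5 call was lost without Z/Z 2 (log2 fold change 1.03), with shared barcodes left out (1.25) and with a limit of 500 detected genes per cell (1.18). WT 2 contributed 25 endothelial cells and 56 Cldn5 UMIs. The capillary markers moved with Cldn5: their summed level, over 4 genes, was 1946 and 1299 CPM in WT and 3347 and 3732 CPM in Z/Z.

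Within capillary cells, 64, 13, 481 and 465 in WT 1, WT 2, Z/Z 1 and Z/Z 2, Cldn5 was at 466 and 245 CPM in WT and 937 and 1272 CPM in Z/Z. The log2 fold change was 1.53 (SE 0.29, edgeR adjusted p = 0.0113), where 3.25% of 9604 genes were called, and leaving out any 1 library gave 1.27 to 2.38, called each time. With shared barcodes left out it was 1.54 (adjusted p = 0.00940), since all capillary cells of the WT libraries remained. Cldn12 was not called (-0.85, SE 0.45, adjusted p = 0.337). The capillary class was not filled by the same clusters, however. Most WT capillary cells lay in endothelial clusters 4 (led by interferon-induced genes such as Cxcl9 and Ifit1) and 6, with 26 and 25 cells of WT 1 and 8 and 4 of WT 2. Most Z/Z capillary cells lay in clusters 0 (led by Timp4, Lpl and Car4) and 1 (led by Angptl4 and Cldn5 itself), with 183 and 132 cells of Z/Z 1 and 169 and 117 of Z/Z 2.

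Cldn5 ranged widely among these clusters. In cluster 1 it was at 1858 CPM in Z/Z 1 and 2683 in Z/Z 2, and the 4 WT 1 cells there had 32 UMIs, 2423 CPM. In cluster 5, which was led by Col13a1 and Plvap, it was at 33.1 and 99.4 CPM in the Z/Z libraries. In cluster 4 the values of WT 1, WT 2 (8 cells), Z/Z 1 and Z/Z 2 were 418, 331, 629 and 752 CPM, and in cluster 6 they were 324, 130.1, 265 and 399 CPM, where the genotypes overlapped. In arterial cells Cldn5 was at 621 and 584 CPM in WT and 674 and 893 CPM in Z/Z. With Z/Z levels at the WT shares of endothelial clusters, the difference on the log2 scale of mean CPM went from 1.23 to 0.61.

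**Figure D5:**
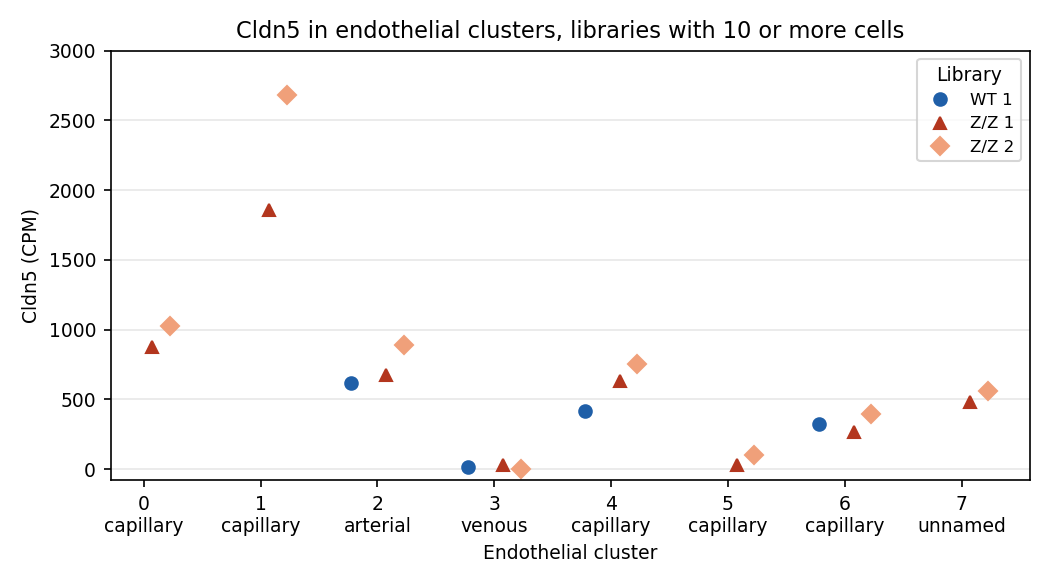
Level of Cldn5 in CPM (y axis) in each endothelial cluster (x axis, with the type each cluster was named), 1 point per library with at least 10 cells in the cluster. WT 2 had no cluster of that size, and cluster 1, with 4 WT cells, lies at 1858 and 2683 CPM in the Z/Z libraries, above all other clusters.

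Whether genotype acted differently on claudins in TECs and in endothelial cells was tested as an interaction. None of the 10 members was called by edgeR, and 0 were called by DESeq2, where edgeR called 9.41% of 16577 genes. The median over all genes was 0.28 on the log2 scale with edgeR and 0.10 with DESeq2, and the split of calls was 1032 higher and 528 lower with edgeR and 432 and 400 with DESeq2. Cldn12, with a difference between the genotype effects of -1.16 on the log2 scale (SE 0.46, edgeR adjusted p = 0.106), and Cldn3, with -2.47 (SE 1.04, adjusted p = 0.134), were the 2 members with an unadjusted p below 0.05. For Cldn5 the difference was 0.80 (SE 0.48, adjusted p = 0.351), and 1.34 (adjusted p = 0.194) with shared barcodes left out, where again 0 members were called. A genotype difference in the endothelial Cldn5 level that is absent from TECs was therefore not shown by this test. Nor could the test exclude one, since Cldn5 in TECs was at background, at 2.55 CPM or less. Empty droplets held Cldn5 at 14.7 and 3.31 CPM in WT and at 102 and 126 CPM in Z/Z. The members with 0 UMIs in WT endothelial cells could not be judged by the test either. Among junction genes it called F11r (0.96, SE 0.31, adjusted p = 0.0324) and Jam2 (-2.38, SE 0.50, adjusted p = 0.000352).

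Proteins that build the tight junction with claudins were followed through a list of 24 genes, chosen with earlier results of these data known. Of 23 tested in TECs, 5 fell and 2 rose between WT and Z/Z, where 11.8% of all genes fell and 9.86% rose, with a median log2 fold change of -0.15 over the list and 0.00 over all genes. Ocln, which codes for occludin, fell by 0.61 on the log2 scale (SE 0.15, edgeR adjusted p = 0.0385), and Marveld2, which codes for tricellulin, fell by 1.36 (SE 0.21). Magi1 fell by 1.02 (SE 0.14) and F11r, the adhesion molecule JAM-A, fell by 0.72 (SE 0.13). Cgn, which codes for cingulin, rose by 1.39 (SE 0.23, adjusted p = 0.0164) and Jam2 by 3.01 (SE 0.60, adjusted p = 0.0250) from TMM-normalised levels of 0.771 and 0.417 CPM in WT. In endothelial cells 0 of 18 passed by edgeR, beside 2.07% of all genes. Of the 18, 4 had an unadjusted p below 0.05, and the share of all genes below that level is not given here. The genes with the smallest p were Magi1 (-0.84, SE 0.21, edgeR adjusted p = 0.0589) and Cgnl1 (-0.79, SE 0.27, adjusted p = 0.148). Between lineages, 8 of 23 were higher and 11 lower in endothelial cells, beside 18.9% and 25.3% of all genes, with Esam (7.07, SE 0.24) and Jam2 (7.60, SE 0.50) on the endothelial side and Pard3 (-3.96, SE 0.27) and Lsr (-3.10, SE 0.25) on the epithelial side.

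Epcam, Spint1, Spint2 and St14 act on claudin stability at the membrane, EpCAM by binding claudin-7 and the others as protease and inhibitors. In TECs 0 of these 4 passed by edgeR, beside 21.6% of all genes. All 4 had an unadjusted p below 0.05, as did at least those 21.6% of genes. The smallest p-values were those of Spint2 (-0.61 on the log2 scale, SE 0.18, edgeR adjusted p = 0.0665) and Spint1 (0.62, SE 0.20, adjusted p = 0.0783). In endothelial cells 3 were tested and Spint2 fell by 1.34 (SE 0.24, adjusted p = 0.0186). Among 16 transcription and splicing factors known to act on junction genes, 14 were tested in TECs and 4 were called, beside 21.6% of all genes. Zeb2 rose by 3.33 on the log2 scale (SE 0.22, adjusted p = 0.00697) and Grhl2 by 0.77 (SE 0.18, adjusted p = 0.0381), while Ovol1 fell by 1.5 (SE 0.22, adjusted p = 0.0134) and Erg by 2.86 (SE 0.40, adjusted p = 0.0123). Zeb2 was among the leading genes of both aaTEC2-like clusters, which were 2.33% and 0% of TECs in WT 1 and WT 2 and 28.1% and 24.7% in Z/Z 1 and Z/Z 2. In endothelial cells 0 of 9 factors passed by edgeR. The smallest p-values were those of Zeb1 (-0.40, SE 0.22, edgeR adjusted p = 0.352) and Foxo1 (-0.37, SE 0.22, adjusted p = 0.387), and 0 factors had an unadjusted p below 0.05. Between lineages, all 4 partners were lower in endothelial cells, Epcam by a log2 difference of -6.32 (SE 0.26), and of 16 factors 6 were higher and 7 lower, where 44.2% of all genes were called, with Sox17 (8.61, SE 0.36) and Esrp1 (-5.95, SE 0.31) at either end by adjusted p.

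The genes whose level most resembled that of Cldn3 over 10 epithelial classes and endothelial types were, by Pearson's r of log2(CPM + 1), Cldn4 (0.986), Cldn7 (0.980), Rab25 (0.978), Pof1b (0.974) and Crb3 (0.971), out of 7484 genes with a mean of at least 20 CPM. Cldn9 stood at rank 265 (r = 0.772) and Cldn14 at rank 1391 (r = 0.555). For Cldn5 they were Fam189a2 (0.980), Tmem184b (0.978), Tcf15 (0.972), Rbp7 (0.971) and Aqp7 (0.966). The 10 points come from the same 4 libraries and no test was made.

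Among the 22 other symbols of the family, 9 were tested in TECs and 1 was called (21.6% over all genes), Cldn23, which fell by 1.73 on the log2 scale (SE 0.34, edgeR adjusted p = 0.0240). Cldn15 and Cldn34c1 were the only ones with at least 5 CPM in every library of a lineage. Cldn15, a pore-forming claudin of the gut, was at 10.7, 10.5, 25.1 and 21.8 CPM in endothelial cells of WT 1, WT 2, Z/Z 1 and Z/Z 2 and at 1.06 CPM or less in TECs, higher in endothelial cells by 5.04 (SE 0.45, edgeR adjusted p = 4.30e-05). Its endothelial values in both Z/Z libraries lay above both WT values, but the log2 fold change (1.13, SE 0.44, adjusted p = 0.195) did not pass. The other members of this set called between lineages, where 44.2% of all genes were, were Cldn34c1 (1.46, SE 0.28) and Cldn16 (1.48, SE 0.42), higher in endothelial cells, and Cldn10 (-3.95, SE 0.65) and Cldn23 (-3.76, SE 0.67), lower. Cldn34c1 was at 8.04 to 11.3 CPM in TECs and 13.7 to 52.6 CPM in endothelial cells.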

How the data were processed

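CD45-negative thymic stroma cells of 4 libraries (WT 1, WT 2, Z/Z 1 and Z/Z 2) were compared. The authors aligned 10x 3′ reads to mm10 with Cell Ranger (7.01 in the processing notes, which also name GRCm38.p5) and deposited raw UMI counts per gene and cell, not normalised, with summary sheets whose mapping and saturation figures are percent values. The labels name version 2 of the chemistry and the methods a version 3 chip. Nothing states which thymi formed which pool, so p-values measure the spread between these libraries, which may be technical.

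Cells with more than 1000 genes and less than 20% mitochondrial UMIs were kept (the study applied its mitochondrial limit by cluster), and the 3.9% with the highest Scrublet score per library were removed as doublets, since the automatic threshold marked 97 of 10245 cells. This left 9846 of 13981 called cells. Cells were clustered with scanpy 1.11.5 and leidenalg 0.10.2 (3500 variable genes, resolution 1.0) with 138 genes held out, the claudins and the named lists among them, and clusters were named from markers with at least 3 detected. UMIs were summed per lineage or class and library and tested with edgeR 4.0.16 (R 4.3.3, limma 3.58.1) by the quasi-likelihood method, TMM normalisation, filterByExpr and Benjamini-Hochberg adjustment over all genes at 0.05. The comparison of lineages used the library as a block. DESeq2 1.42.0 was an alternative. CPM are UMIs per 1000000 UMIs of the sum, and a level needed at least 10 cells in a library. The study's rank-sum tests over cells were not used, since cells of a library are not replicates. Simulated counts had 200 changed genes and a common dispersion for all genes. For genotype in TECs (18459 genes), the test recovered 11% of 2-fold and 73% of 4-fold changes with 3 false calls. For genotype in endothelial cells (10964 genes) it recovered 18% and 84% with 2. In the TEC data 4080 genes were called, so these rates need not be the power of that test. The members and gene lists were chosen with earlier results of these data known. All 10 members are named (1 gene of another list is not reported here), and from each list the called genes with the smallest adjusted p, at most 4 in each direction, or the 2 with the smallest p where none was called. Alternatives covered the tool, filters, doublets, empty-droplet RNA (at most 1.61% of a sum), thinning to 2000 UMIs, shared barcodes, clustering resolution, single libraries and the replicate number. Promoter windows come from a RefSeq table. Same-numbered libraries deviated from their group means with r = -0.0882 in TECs and -0.00465 in endothelial cells across genes. No pairing by replicate number was seen, but this is 1 value per lineage and cannot exclude one.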

Additional observations from a re-analysis of the deposited data

Results flagged for a closer look

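Values stood out in cells that no comparison above used, those of clusters given no lineage name, where a claudin with more than 3 UMIs in a Z/Z library exceeded its highest level over all kept cells of a WT library. That level averages over all cell types, and single groups of WT 1 lay higher. Cldn5 was at 374 CPM in its endothelial cells, Cldn3 at 99.2 in its TECs and Cldn14 at 381 in its 16 aaTEC1-like cells. In a cluster led by Trpm3 and Lsamp, with 110 cells of Z/Z 1, 33 of Z/Z 2 and no WT cell, Cldn14 was at 258 CPM in Z/Z 1 and 122 CPM in Z/Z 2, against at most 17.5 CPM over a WT library. In a cluster led by Pth, the parathyroid hormone gene, with 91 cells of Z/Z 2 and 5 of WT 1, the Z/Z 2 cells held Cldn1 at 30.0, Cldn3 at 95, Cldn5 at 120.0, Cldn9 at 90.0 and Cldn12 at 35 CPM. These 91 cells held 199990 UMIs in total. The empty droplets of Z/Z 2 had Cldn1 at 6.86, Cldn3 at 63.2, Cldn5 at 126, Cldn9 at 50.8 and Cldn12 at 12.4 CPM. The part of stray RNA in the cluster was not tested. In a cluster of 29 cells of Z/Z 1 led by immunoglobulin genes, Cldn5 was at 28.3, Cldn9 at 42.4 and Cldn14 at 28.3 CPM, the first and last from 4 UMIs each. The empty droplets of Z/Z 1 had Cldn5 at 102, Cldn9 at 55.3 and Cldn14 at 15.7 CPM. The clusters hold 1 or 2 libraries, and no test was made. With 2 libraries per genotype, no group was large enough to look for a single outlying library.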

How the results depend on the processing

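Of 502 values recomputed under an alternative, 435 kept their direction and side of the threshold or moved less than their spread, 39 lost a call or fell in count, 11 gained one, 12 reversed and 5 moved, and for none was the cause tested. The 5 claudins called by genotype in TECs became 3 when cells were thinned to 2000 UMIs, 0 with shared barcodes left out and 0 without the mTEC2-like cluster, and 0 to 7 with a library left out, where leaving out Z/Z replicate 1 gave 0 and Z/Z replicate 2 gave 1. The 1 claudin called in endothelial cells became 0 with a limit of 500 genes, 0 with shared barcodes left out and 0 to 1 with a library left out. Within a class, 1 call became 3 with DESeq2 and 5 with no filter on low counts. Members called between lineages numbered 6 to 10, and 0 had a differing genotype effect under any alternative.

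With the replicate block, the 5 calls in TECs became 3 (Cldn9, Cldn6 and Cldn4), while the endothelial and capillary calls of Cldn5 held. The calls of Cldn1 (edgeR adjusted p = 0.0526) and Cldn7 (0.0818) were the ones lost. Whether the replicate numbers pair the libraries cannot be settled with 2 libraries per genotype.

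Signs reversed for Cldn3 in TECs when thinned (-0.35), for Cldn5 (-0.05), Cldn12 (-0.10) and Cldn14 (-0.81) without the mTEC2-like cluster, for Cldn14 without WT replicate 1 (-0.42, in a range from -0.42 to 1.81 over libraries left out) and with shared barcodes left out (-0.28), and for Cldn7 (0.23) and the uncalled Cldn12 (-0.28) and Cldn14 (-1.88), counted as moved, at the WT shares of epithelial classes. They also reversed for the interaction of Cldn5 without WT replicate 1 (-0.55, range -0.55 to 0.96) and of Cldn9 with DESeq2 (-1.16), and in mTEC2-like cells for Cldn4 with shared barcodes left out (0.05) and without WT replicate 2 (0.10, range -0.46 to 0.10) and Cldn7 without Z/Z replicate 2 (-0.08, range -0.08 to 0.37). Thinned Cldn6 levels in TECs were lower in both Z/Z libraries than in both WT ones, but no fitted value for them is given here. Where a sum was left with 1 library in a genotype, that library was assumed to vary like the other genotype.

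The 4080 genes called in TECs became 215 without Z/Z 1, 1484 without Z/Z 2, 2416 with the replicate block, 1 with shared barcodes left out and 432 without the mTEC2-like cluster. The 235 called in endothelial cells became 741 with no filter, 918 without WT 1, 1011 without WT 2, 81 without Z/Z 1, 129 without Z/Z 2, 369 with the replicate block, 99 with the 500-gene limit, 67 when thinned and 64 with shared barcodes left out. The 312 called in capillary cells became 146 with DESeq2, 588 with no filter, 543 without WT 2, 52 without Z/Z 1, 91 without Z/Z 2 and 84 when thinned, and the 1560 of the interaction 832 with DESeq2, 903 without WT 1, 106 without Z/Z 1, 306 without Z/Z 2, 705 when thinned and 615 with shared barcodes left out. In mTEC2-like cells 0 became 218 with DESeq2, 1282 with no filter and 1 when thinned. Depth limits the low members: Cldn1, Cldn6, Cldn8 and Cldn14 had 0 to 2 endothelial UMIs in a library.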
